A study of Mus musculus with 6 samples.

Results

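The 7 miRNAs described here are known from tissues other than epithelium. They are mmu-miR-146a-5p, mmu-miR-155-5p and mmu-miR-342-3p of immune cells, mmu-miR-126a-3p of endothelium, mmu-miR-1a-3p of striated muscle, mmu-miR-122-5p of liver and mmu-miR-128-3p of neurons. They were taken by name from a table of 199 mature miRNAs, and all 7 had counts in every library. The table came from organoids of mouse small intestine, crypts embedded in a gel and grown in a commercial medium. The PBS group (3 libraries) received PBS and the BMP4 group (3 libraries) received bone morphogenetic protein 4 at 0.5 µg/ml for 4 days. The labels name no other treatment and no genetic change in either group. The sources used here do not give the strain, sex and age of the mice that gave the crypts. The study's methods speak of 3 replicates for each culture condition and of repeated experiments in general, but no source says whether separate cultures or experiments gave the sequenced libraries of a group. The p-values below therefore set group differences against the spread between libraries, which may be technical.

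Animal miRNAs are RNAs of about the length printed below that guide an Argonaute protein to matching sites in mRNAs, mainly through the seed near the 5′ end. Many are made by few cell types. Hepatocytes, striated muscle, endothelium and blood each carry a characteristic set, and these sets are often read as a sign of which cells a sample holds. The gut epithelium is known for miR-192, miR-194 and miR-215, and, like other epithelia, for the miR-200 family. Crypt cultures are made to grow epithelium without blood, vessel or muscle cells, although some miRNAs named for one lineage are made at low levels by many cells. In libraries of whole cultures, fewer cells of a type and less miRNA per cell cannot be told apart.

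The mature sequences of 5 members follow from 5′ to 3′, with the seed (bases 2 to 8) in capitals, to show which of them another measured miRNA could be mistaken for. They are RefSeq sequences on GRCm38.p6, matched by name, as were 177 of the 199 entries. miR-146b-5p is shown because it is the 1 entry among those matched that shared a seed with any of the 5.
miR-146a-5p: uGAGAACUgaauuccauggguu
miR-146b-5p: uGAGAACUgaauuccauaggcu
miR-155-5p: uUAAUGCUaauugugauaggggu
miR-342-3p: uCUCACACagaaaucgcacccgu
miR-126a-3p: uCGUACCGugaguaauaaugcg
miR-128-3p: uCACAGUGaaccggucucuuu
Counted from the 5′ end of miR-146a-5p, miR-146b-5p differed by the substitutions G18A and U21C, both outside the seed. Reads of near-identical miRNAs may be counted under either, so the level of miR-146a-5p is uncertain to that extent. Among the entries whose sequences were compared, the nearest was 7 edits away for miR-128-3p, 8 for miR-155-5p, 9 for miR-126a-3p and 10 for miR-342-3p. Entries without a matched sequence were not compared.

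The 7 members together were a very small part of every library. They summed to 191, 3039 and 2940 counts in PBS and to 522, 454 and 1650 in BMP4, out of totals that ran from 259811 to 3486409. That was 0.0735% (95% Wilson interval 0.0638 to 0.0847), 0.135% (0.130 to 0.140) and 0.138% (0.133 to 0.143) of PBS counts. In BMP4 it was 0.0486% (0.0446 to 0.0530), 0.0455% (0.0415 to 0.0498) and 0.0473% (0.0451 to 0.0497). PCR copies of a molecule are not independent, so all intervals here cover counting error alone. The epithelial miRNAs stood at the other end of the range. The measured arms of miR-192, miR-194 and miR-215, 6 in number, held 37.6% ± 1.63 of PBS counts and 78.8% ± 1.24 of BMP4 counts (SD, n = 3), and the 5 arms taken here as the miR-200 family (the 3p arms of miR-200a, miR-200b, miR-200c, miR-141 and miR-429) held 13.01% ± 0.833 and 3.82% ± 0.721 (SD, n = 3). For each count of a member, a library held between 65.8 and 190 counts of the miR-200 family. For the arms of miR-192, miR-194 and miR-215 it ran from 277 to 492 in PBS and from 1635 to 1751 in BMP4.

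**Figure D1:**
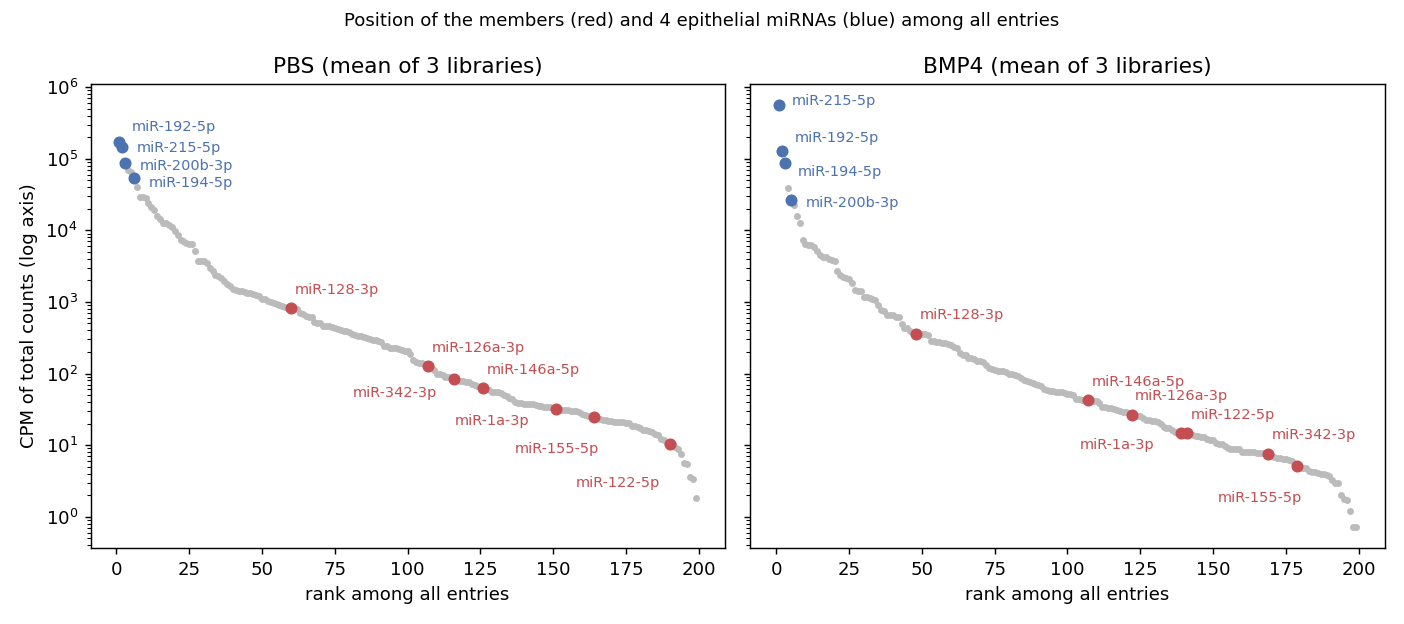
Mean CPM of total counts (log axis) against rank for all 199 entries, in PBS on the left and BMP4 on the right, with the 7 members in red and 4 epithelial miRNAs in blue. miR-128-3p lay well above the other 6 members, which lay in the lower part of the curve, far under miR-192-5p and miR-215-5p.

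One member dominated the sum. miR-128-3p made up 68.2% ± 11.04 of the members' counts in PBS and 76.4% ± 2.59 in BMP4 (SD, n = 3). Its rank among the 199 entries ran from 51 to 74 in PBS and from 45 to 52 in BMP4. The other 6 ranked from 103 to 193 in PBS and from 95 to 186 in BMP4, and in 5 of 6 libraries they all lay under the median entry. The exception was BMP4 replicate 2, where miR-146a-5p lay above it. On the TMM scale (trimmed mean of M values, a scaling of libraries under which most miRNAs are taken as unchanged), the PBS order was miR-128-3p, miR-126a-3p, miR-342-3p, miR-146a-5p, miR-1a-3p, miR-155-5p and miR-122-5p. Of these neighbours, only miR-128-3p and miR-126a-3p, and miR-146a-5p and miR-1a-3p, had ranges over the 3 libraries that did not overlap. In BMP4 the order was miR-128-3p, miR-146a-5p, miR-126a-3p, miR-122-5p, miR-1a-3p, miR-342-3p and miR-155-5p, and the ranges overlapped from miR-126a-3p downwards. Ligation and PCR favour some sequences, so levels of different miRNAs are compared here only roughly.

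The effect of BMP4 was taken from a fit across all miRNAs. Among the 7 members, 2 rose (miR-122-5p and miR-146a-5p), 1 fell (miR-342-3p) and 4 did not pass the threshold, an adjusted p under 0.05 by edgeR. Over all 195 miRNAs tested, 30.3% passed, 17.4% as higher and 12.8% as lower, so the count of 3 in 7 was near the background. The median log2 fold change was 0.63 over the members and 0.03 over all miRNAs tested. TMM-scaled CPM of the groups did not overlap for the same 3 members, where 43.6% of all miRNAs tested had no overlap. Every direction on the TMM scale is thus a change relative to most other miRNAs. With libraries scaled to their total counts the median of all miRNAs was -1.78, 81.0% of miRNAs were called lower, and the members gave 5 lower and 0 higher. Unscaled CPM lay wholly lower in BMP4 for those 5 members, miR-155-5p, miR-342-3p, miR-126a-3p, miR-1a-3p and miR-128-3p, as it did for 80.4% of all 199 entries.

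**Figure D2:**
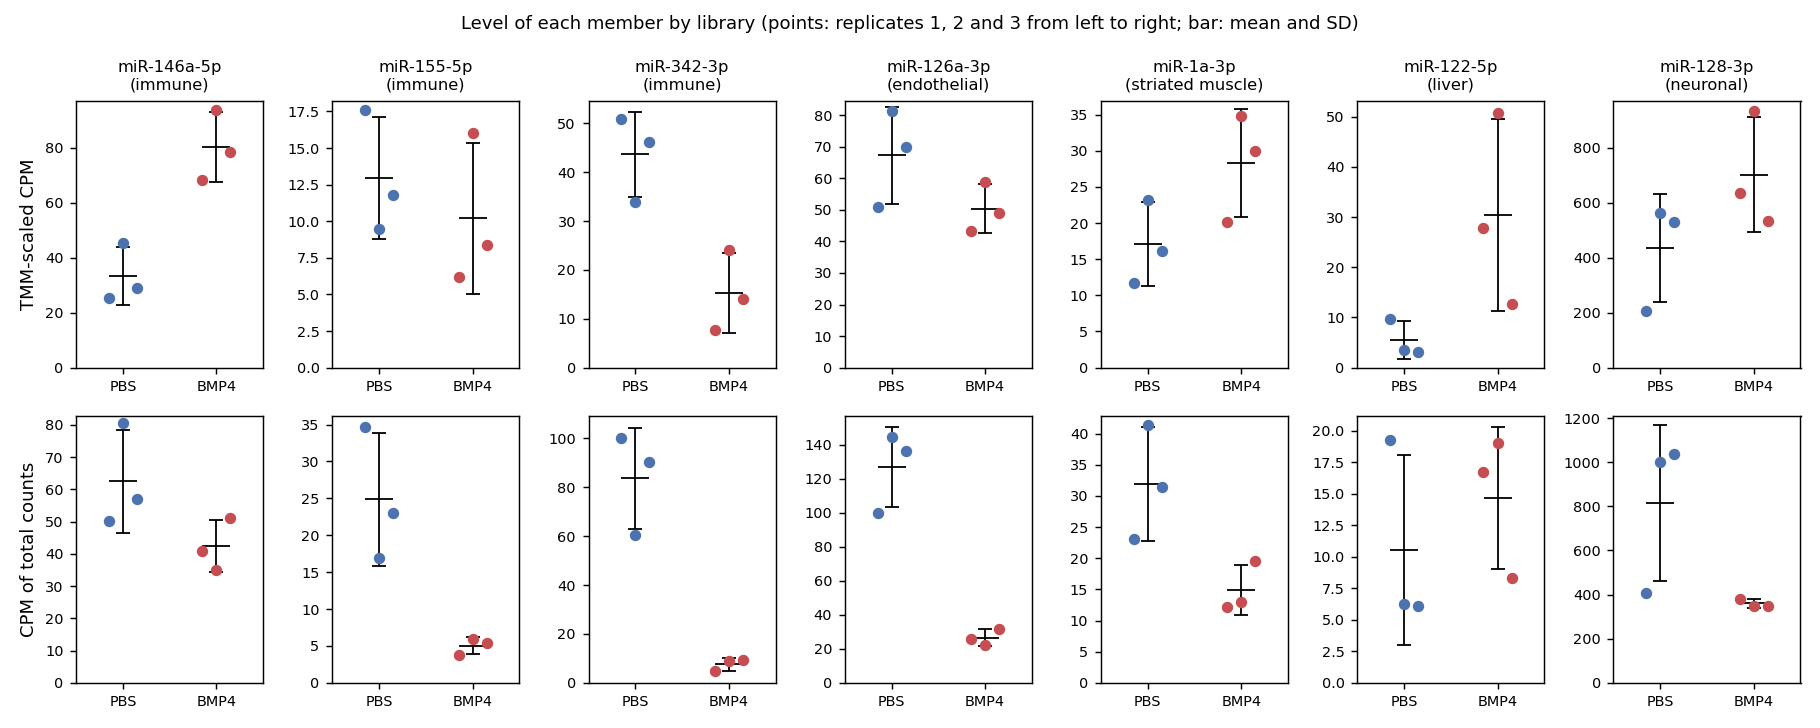
Level of each member in every library as TMM-scaled CPM (upper row) and as CPM of total counts (lower row), with PBS in blue, BMP4 in red and the mean and SD of 3 libraries in black. On the TMM scale only miR-146a-5p, miR-342-3p and miR-122-5p had groups that did not overlap, and on the total scale miR-146a-5p and miR-122-5p were the members that did overlap.

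Of the immune members, miR-146a-5p is induced by NF-kB and limits that pathway by targeting Irak1 and Traf6. Its hairpin lies on chromosome 11, 43374397 to 43374461 on the - strand of GRCm38, outside the other annotated genes. The PBS libraries gave 13, 181 and 121 counts and the BMP4 libraries 44, 35 and 178. TMM-scaled, these were 25.4, 45.3 and 29.1 CPM in PBS and 68.2, 93.5 and 78.4 CPM in BMP4. The lowest BMP4 value was above the highest PBS value. The log2 fold change was 1.22 ± 0.39 (SE, n = 3 per group, edgeR adjusted p = 0.0238). It no longer passed without BMP4 replicate 3 (adjusted p = 0.0691) or without PBS replicate 1 (0.0640) or 3 (0.104). Scaled to total counts less those of miR-192, miR-194 and miR-215 it was 0.97 (adjusted p = 0.0894), and with total counts -0.58 (adjusted p = 0.177). Counts were also set against 10000 counts of the miR-200 family in the same library, which takes that family as the scale. There were then 3.58, 6.43 and 4.53 counts of miR-146a-5p in PBS and 9.56, 11.7 and 12.2 in BMP4. The exact 2-sided permutation p was 0.1, the smallest that 3 libraries against 3 allow.

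miR-146b-5p, which has the same seed, had more counts than miR-146a-5p in all 6 libraries (219, 1974 and 1717 in PBS, 314, 437 and 1120 in BMP4). Its log2 fold change was 0.68 ± 0.37 (SE, n = 3 per group, edgeR adjusted p = 0.194), and its groups overlapped on the TMM scale. With total counts the value was -1.27 (adjusted p = 0.00436). miR-146a-5p stood at 0.0594, 0.0917 and 0.0705 times miR-146b-5p in PBS and at 0.140, 0.0801 and 0.159 times in BMP4. These ratios overlapped between the groups, with BMP4 replicate 2 inside the PBS range (exact 2-sided permutation p = 0.2, n = 3 per group).

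miR-342-3p, an abundant miRNA of lymphocytes, moved the other way. It is made from an intron of Evl (chromosome 12, 108658620 to 108658718, + strand). Its counts were 26, 136 and 192 in PBS and 5, 9 and 32 in BMP4, or 50.9, 34.0 and 46.2 TMM-scaled CPM against 7.76, 24.1 and 14.1. All BMP4 libraries lay under all PBS libraries, although counts of 5 and 9 carry 95% Poisson intervals of 1.62 to 11.7 and 4.12 to 17.1. The log2 fold change was -1.58 ± 0.45 (SE, n = 3 per group, edgeR adjusted p = 0.0108). It no longer passed when PBS replicate 1 (adjusted p = 0.0537), PBS replicate 3 (0.101), BMP4 replicate 1 (0.0588) or BMP4 replicate 3 (0.0698) was left out. The value was under 0 with each scaling tried, from -1.56 with TMMwsp, a variant of TMM, to -3.38 with total counts. For every 10000 counts of the miR-200 family there were 7.16, 4.83 and 7.19 of miR-342-3p in PBS and 1.09, 3.01 and 2.19 in BMP4 (exact 2-sided permutation p = 0.1, n = 3 per group).

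miR-155-5p, made from the noncoding gene Mir155hg on chromosome 16 (hairpin at 84714140 to 84714204, + strand) and raised in activated lymphocytes and macrophages, was the scarcest immune member. Counts were 9, 38 and 49 for PBS and 4, 6 and 19 for BMP4. TMM-scaled, PBS libraries held 17.6, 9.50 and 11.8 CPM and BMP4 libraries 6.20, 16.04 and 8.37 CPM, so the groups overlapped. It changed by -0.36 ± 0.48 on the log2 scale (SE, n = 3 per group, edgeR adjusted p = 0.596). It was called only with total counts (-2.14, adjusted p = 0.00189).

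The immune members were also set against each other, a comparison that library scaling cannot touch and that was chosen after their values were seen. miR-146a-5p stood at 0.500, 1.33 and 0.630 times miR-342-3p in PBS and at 8.80, 3.89 and 5.56 times in BMP4, a log2 difference of 2.87 ± 0.53 (SE, n = 3 per group). miR-155-5p stood at 0.346, 0.279 and 0.255 times miR-342-3p in PBS and at 0.800, 0.667 and 0.594 times in BMP4 (1.23 ± 0.19). miR-146a-5p stood at 1.44, 4.76 and 2.47 times miR-155-5p in PBS and at 11.0, 5.83 and 9.37 times in BMP4 (1.64 ± 0.57). The groups did not overlap for any of these 3 ratios (of 4 computed, with that to miR-146b-5p), which were all higher in BMP4, with an exact 2-sided permutation p of 0.1. For miR-146a-5p over miR-342-3p this was fixed in advance. TMM-scaled, miR-146a-5p already lay wholly higher and miR-342-3p wholly lower in BMP4, so that ratio adds no separate support. The 3 ratios are not separate results, because each follows from the others, and their direction depends on which miRNA is the numerator. The share of all miRNA pairs without overlap was not computed. The sum of the immune members did not separate the groups against the miR-200 family. It stood at 13.2, 12.6 and 13.5 counts for every 10000 miR-200 counts in PBS and at 11.5, 16.7 and 15.7 in BMP4.

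miR-126a-3p, which supports growth factor signalling in vessel endothelium, is made from Egfl7 (chromosome 2, 26591357 to 26591429, + strand, overlapping an annotated exon). PBS libraries had 26, 325 and 290 counts and BMP4 libraries 28, 22 and 111. On the TMM scale PBS libraries held 50.9, 81.3 and 69.8 CPM and BMP4 libraries 43.4, 58.8 and 48.9 CPM, with PBS replicate 1 inside the BMP4 range. On the log2 scale the change was -0.46 ± 0.38 (SE, n = 3 per group, edgeR adjusted p = 0.403). With total counts it was called lower (-2.25, adjusted p = 0.000311), as most miRNAs were.

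miR-1a-3p, a miRNA of heart and skeletal muscle, is made from the loci Mir1a-1 (chromosome 2, 180389048 to 180389124, + strand) and Mir1a-2, which these counts cannot tell apart. Its counts were 6, 93 and 67 in PBS and 13, 13 and 68 in BMP4. TMM-scaled CPM were 11.7, 23.3 and 16.1 in PBS and 20.2, 34.7 and 29.96 in BMP4. PBS replicate 2 lay above BMP4 replicate 1, so the groups overlapped. It changed by 0.63 ± 0.41 on the log2 scale (SE, n = 3 per group, edgeR adjusted p = 0.284), against -1.12 with total counts (adjusted p = 0.0262).

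miR-122-5p, the leading miRNA of hepatocytes, had the largest fold change of the 7 and the fewest PBS counts. Its hairpin lies on chromosome 18 (65248861 to 65248926, + strand) in an exon of a noncoding RNA. Counts were 5, 14 and 13 in PBS and 18, 19 and 29 in BMP4, with 95% Poisson intervals from 1.62 to 11.7 for the lowest and from 19.4 to 41.6 for the highest. TMM-scaled, PBS libraries held 9.79, 3.50 and 3.13 CPM and BMP4 libraries 27.9, 50.8 and 12.8 CPM. The groups did not overlap, but the 3 BMP4 values were far apart, with an SD of 19.1 CPM around a mean of 30.5. BMP4 replicate 2 had the lowest TMM factor (0.375, against 0.600 and 0.651 in the other BMP4 libraries). It also had the highest TMM-scaled BMP4 value of every member. Unscaled, the BMP4 libraries held 16.8, 19.0 and 8.32 CPM of miR-122-5p. Whether the scaling of that library has a part in the spread was not tested. The log2 fold change was 2.71 ± 0.57 (SE, n = 3 per group, edgeR adjusted p = 0.000895), and it ran from 2.20 to 3.18 with each library left out in turn. With total counts it was 0.83 (adjusted p = 0.191). PBS replicate 1 had the highest unscaled level of all 6 libraries (19.2 CPM, 95% Poisson interval 6.25 to 44.9, against 6.23 and 6.11 in the other PBS libraries). In counts alone, miR-122-5p was the 1 member whose raw BMP4 counts all lay above its raw PBS counts. Raw counts also follow depth, and its lowest count came from the shallowest library and its highest from the deepest. As unscaled CPM its groups overlapped. The share of all entries with such raw counts was not computed.

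miR-128-3p, abundant in brain and made at lower levels by many cells, comes from introns of R3hdm1 (Mir128-1, chromosome 1, 128202361 to 128202430, + strand) and Arpp21 (Mir128-2, chromosome 9, 112118636 to 112118711, - strand). Both loci give the same mature sequence. PBS libraries had 106, 2252 and 2208 counts of it and BMP4 libraries 410, 350 and 1213. TMM-scaled CPM were 207, 563 and 531 in PBS and 636, 935 and 534 in BMP4. PBS replicate 1, the shallowest library, lay apart from the other PBS libraries, and PBS replicate 2 lay above BMP4 replicate 3. The log2 fold change was 0.68 ± 0.39 (SE, n = 3 per group, edgeR adjusted p = 0.206), and 0.43 without PBS replicate 1 (adjusted p = 0.449). As unscaled CPM, the level was 408 in PBS replicate 1 against 1001 and 1038 in the other PBS libraries, and 382, 350 and 348 in BMP4. With total counts the log2 fold change was -1.19 (adjusted p = 0.0144).

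**Figure D3:**
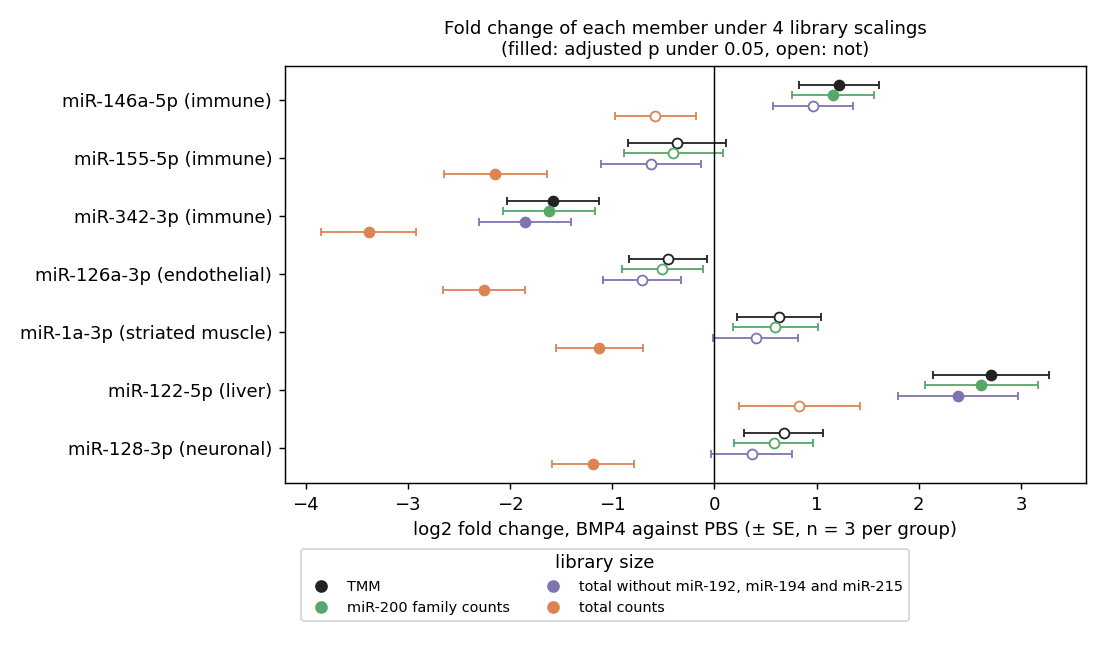
Log2 fold change of each member in BMP4 against PBS with its SE (n = 3 per group) under 4 library scalings, filled where the adjusted p was under 0.05. miR-342-3p lay under 0 and miR-122-5p above 0 with each scaling, miR-146a-5p was at 1.22 with TMM and -0.58 with total counts, and total counts shifted all 7 to the left.

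The 5 arms of the miR-200 family used here were not called in the TMM fit. With total counts all 5 were called lower (log2 fold changes from -2.18 to -1.30), so ratios to the family depend on taking it as the scale. Set against this family, 4 of the 7 members had groups that did not overlap. These were miR-146a-5p, miR-122-5p and miR-128-3p as higher and miR-342-3p as lower. Of the entries outside those 5 arms, 43.3% had no overlap on this scale. The family was not equally large in all libraries. It held 14.7% of the counts outside the arms of miR-192, miR-194 and miR-215 in BMP4 replicate 2, against 18.5 to 21.9% elsewhere. A smaller denominator raises every ratio to the family in that library. miR-200a-5p, which is not among the 5, rose (log2 fold change 0.90 ± 0.32, SE, n = 3 per group, edgeR adjusted p = 0.0405). miR-200b-5p (0.38, edgeR adjusted p = 0.425) and miR-141-5p (0.03, edgeR adjusted p = 0.954), also outside the 5, were not called. The log2 difference was 2.36 ± 0.72 for miR-122-5p and 0.72 ± 0.51 for miR-128-3p (SE, n = 3 per group, exact 2-sided permutation p = 0.1 for both). For miR-128-3p the gap was narrow, with 82.6 counts for every 10000 miR-200 counts in PBS replicate 3 and 83.0 in BMP4 replicate 3. miR-1a-3p (0.68 ± 0.34, exact permutation p = 0.2), miR-155-5p (-0.41 ± 0.43, p = 0.4) and miR-126a-3p (-0.46 ± 0.23, p = 0.3) overlapped between the groups.

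The sum of the members was a smaller share of all counts in BMP4 than in PBS, but not of the counts outside miR-192, miR-194 and miR-215. The 6 members other than miR-128-3p held 0.0340% ± 0.00118 of all counts in PBS and 0.0111% ± 0.00122 in BMP4 (SD, n = 3). Of the counts outside the arms of miR-192, miR-194 and miR-215 they held 0.0513, 0.0559 and 0.0568% in PBS and 0.0508, 0.0510 and 0.0554% in BMP4. The first set of values separated the groups and the second overlapped between them. With miR-128-3p added, the second share was 0.115% in PBS replicate 1 and between 0.209 and 0.237% in the other 5 libraries.

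**Figure D4:**
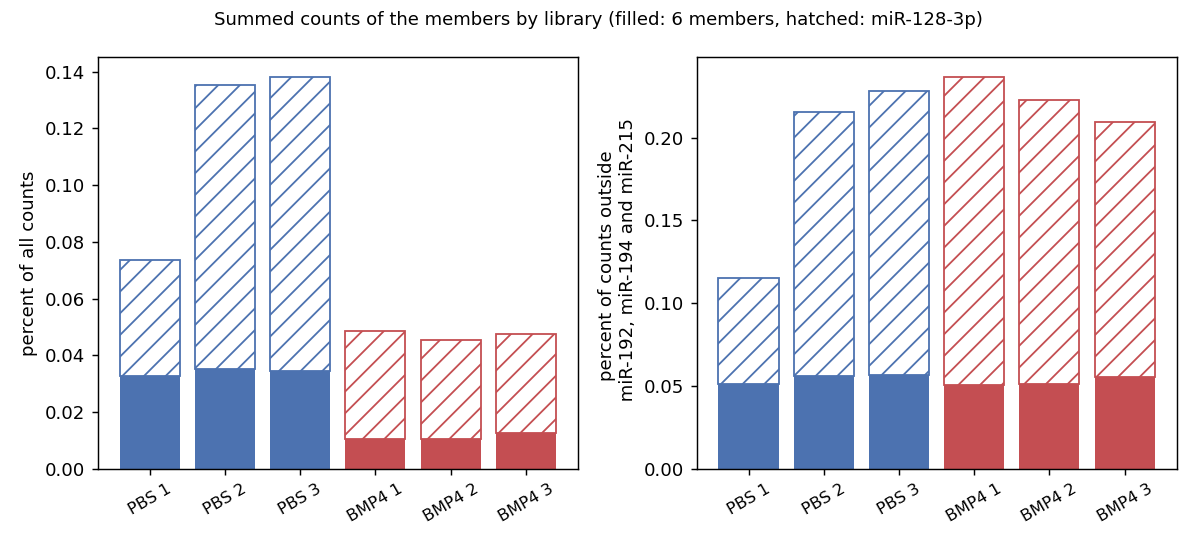
Summed counts of the members by library, as a percentage of all counts (left) and of counts outside the arms of miR-192, miR-194 and miR-215 (right), with the 6 members filled and miR-128-3p hatched. The filled bars averaged 0.0340% of all counts in PBS and 0.0111% in BMP4, and lay between 0.0508 and 0.0568% in all 6 libraries on the right.

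The wider lists of the same lineages were mostly outside the table. Of 48 arms listed for immune, endothelial, stromal and smooth muscle, striated muscle, liver, neuronal and erythroid cells, 10 had a row, the 7 members among them. The lowest mean count of any row was 11, and the sources used here do not say by which rule entries were kept, so an arm with no row cannot be given a level. The arms with no row include the defining markers miR-142a-3p and miR-223-3p of blood cells, miR-143-3p and miR-145a-5p of smooth muscle and stroma, miR-133a-3p of muscle, miR-124-3p of neurons and miR-451a of red cells, and the other arm of each member's hairpin. Of the 11 immune arms 4 had a row, with 1 higher and 1 lower, where 17.4% and 12.8% of all miRNAs tested were. The summed share of the 3 immune members was 0.0274% ± 0.00195 of the counts outside the arms of miR-192, miR-194 and miR-215 in PBS against 0.0259% ± 0.00275 in BMP4 (SD, n = 3). These shares overlapped between the groups. Of the 12 neuronal arms 3 had a row. Among these, miR-218-5p fell by 1.27 ± 0.37 on the log2 scale (SE, n = 3 per group, edgeR adjusted p = 0.0140), from 153, 293 and 271 to 105, 90.9 and 103 TMM-scaled CPM. It no longer passed when PBS replicate 2 (adjusted p = 0.116) or PBS replicate 3 (0.104) was left out.

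Over the 6 libraries, the pattern of miR-342-3p was most like those of miR-181c-3p (Pearson r of log2 TMM-scaled CPM 0.966) and miR-671-5p (0.942). That of miR-146a-5p was most like miR-27a-5p (0.978) and miR-200a-5p (0.972), and that of miR-126a-3p most like miR-99a-5p (0.975). The entry nearest to miR-1a-3p was another member, miR-146a-5p (0.917). miR-128-3p was nearest to miR-1947-5p (0.976), miR-122-5p to miR-203b-3p (0.937) and miR-155-5p to miR-25-3p (0.896). These correlations describe 6 libraries that share their scaling factors and fall into the 2 treatment groups. Some of the neighbours had very low values. miR-1947-5p stood at 1.96 TMM-scaled CPM in PBS replicate 1, against 11.5 to 26.7 elsewhere. miR-181c-3p stood at 0, 2.67 and 1.76 TMM-scaled CPM in BMP4.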

How the data were processed

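Small RNA was sequenced from 3 PBS and 3 BMP4 organoid libraries. The authors trimmed adaptors with bbmap, discarded reads under 15 or over 27 nt, mapped with miRDeep2 and counted reads on miRBase mature miRNAs with its quantifier. The deposited values are raw counts with no normalization. The sources used here do not give the genome build or the miRBase release.

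Counts of all miRNAs were compared in R 4.3.3 with edgeR 4.0.16 (filterByExpr, which kept 195 of 199 entries, TMM, 2-sided quasi-likelihood F test, Benjamini-Hochberg adjustment over the 195), and an adjusted p under 0.05 was called changed. The SE was the size of the log2 fold change over the square root of F. TMM factors were 1.78 to 1.97 in PBS and 0.375 to 0.651 in BMP4. CPM are TMM-scaled unless called unscaled or of total counts. Ratios to the miR-200 family used an offset of 0.5 for the log2 difference and were compared by exact permutation, where 3 against 3 allows no p under 0.1. A count of 3 was worth 11.5 unscaled CPM in the shallowest library and 0.860 in the deepest. The edgeR fit was tested on simulated counts with as many rises as falls. That does not test the scaling under a shift like that of miR-192, miR-194 and miR-215 here. Alternatives were DESeq2 1.42.0, limma 3.58.1 (voom), other scalings, other filters, a replicate block and each library left out.

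The members and lists were chosen with earlier results of these data known. Named were the 7 members, the other arms and list members with a row, the epithelial comparators and the 2 entries nearest in pattern to each member. Hairpin positions are those of GENCODE M21 on GRCm38, matched by name.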

Additional observations from a re-analysis of the deposited data

How the results depend on the processing

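With total counts as the scale, 171 miRNAs changed (13 higher, 158 lower), against 59 (34 and 25) with TMM, and of the members 0 were higher and 5 lower. The log2 fold changes were then -0.58 for miR-146a-5p, -1.12 for miR-1a-3p, -1.19 for miR-128-3p and -1.27 for miR-146b-5p, all with the opposite sign, and -2.14 for miR-155-5p, -2.25 for miR-126a-3p and 0.83 for miR-122-5p. With total counts less those of miR-192, miR-194 and miR-215, miR-146a-5p was at 0.97 (edgeR adjusted p = 0.0894), which left 1 member higher. With 1 library left out in turn, 35 to 71 miRNAs changed, 24 to 38 higher and 11 to 33 lower, and 1 to 2 members were higher and 0 to 1 lower. miR-146a-5p ran from 1.09 to 1.60 and miR-342-3p from -1.84 to -1.30. DESeq2, limma, RLE, upper quartile, TMMwsp, the miR-200 family as library size and no filter changed no member's call. A mean of 10 or more counts kept all 199 entries, as no filter did.

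The miR-200 family was also replaced by miR-192-5p, miR-194-5p and miR-215-5p, which rose themselves (log2 fold changes of 1.46, 2.48 and 3.85 with TMM). The log2 differences were then -1.62 for miR-146a-5p, -0.49 for miR-122-5p, -2.13 for miR-128-3p and -2.16 for miR-1a-3p, all reversed in sign. They were -3.26 for miR-155-5p, -4.49 for miR-342-3p and -3.30 for miR-126a-3p. All these differences include the rise of the denominator. The summed share of the members differed by -0.0685 percentage points of all counts (BMP4 minus PBS), by 0.0366 of counts outside miR-192, miR-194 and miR-215 and by -0.0229 without miR-128-3p.

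The titles give the groups the same replicate numbers. Deviations of same-numbered libraries correlated at 0.0154, 0.0471 and -0.00984, and those of differently numbered libraries at -0.108 to 0.0835. With so few libraries these values cannot decide whether same-numbered libraries share an experiment. With the replicate block 49 miRNAs changed, and the 3 called members kept their calls. Depth limits miR-122-5p, miR-155-5p, miR-342-3p and miR-1a-3p, which each had fewer than 10 counts in at least 1 library.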

Other observations

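miR-9-5p, a miRNA of neural progenitors and neurons, was removed by the filter on low counts and so has no test in the fit used here. Its counts were 16, 6 and 6 for PBS and 3, 31 and 16 for BMP4. As unscaled CPM these were 61.6, 2.67 and 2.82 in PBS and 2.79, 31.0 and 4.59 in BMP4, so that PBS replicate 1 and BMP4 replicate 2 each lay far above the other libraries of their group. PBS replicate 1 was also the PBS library with the highest unscaled level of miR-122-5p (19.2 CPM), miR-155-5p (34.6 CPM) and miR-342-3p (100.1 CPM) and the lowest of miR-128-3p, miR-146a-5p, miR-126a-3p and miR-1a-3p. It was the shallowest library, and its 7 member counts ran from 5 to 106. Whether depth has a part in these values was not tested.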
